A study of Mus musculus with 4 samples.

Results

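The expression of 10 transcription factors of the blood and vessel lineages was described in single cells of the mouse Mesp1 lineage. These were Etv2, Tal1, Lmo2, Fli1, Erg, Runx1, Sox7, Sox17, Sox18 and Gfi1b, chosen by symbol from the 27998 genes of the count tables, and each symbol matched 1 gene. There were 4 libraries, 1 for each embryonic day sampled: E8.0, then E8.25, then E9.5, and last E10.5. Values listed in stage order follow that sequence. All were Mesp1Cre;Rosa26-GFPflox/+ embryos of the Swiss Webster strain, in which Cre from the Mesp1 locus of early mesoderm permanently switches on a GFP reporter, and every library carried the same alleles. The 2 earlier libraries came from the upper part of the body, and the 2 later ones from pharyngeal apparatus and heart, so stage and region cannot be told apart. Embryos of a stage were pooled before live GFP-positive cells were sorted. A library is therefore 1 pool, and the GFP gate leaves out endothelial and blood cells that did not descend from Mesp1-expressing mesoderm.

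Vessels and blood arise side by side from mesoderm that carries the receptor Kdr. Etv2 is an ETS-family factor that acts early and for a short time in this mesoderm. Fli1 and Erg are ETS-family factors that maintain endothelial genes later on. Tal1, a basic helix-loop-helix factor, binds DNA together with GATA factors through the bridging protein Lmo2, which has no DNA-binding domain of its own. Runx1 is needed for the emergence of definitive blood cells from endothelium, and Gfi1b is a repressor of red cell and megakaryocyte precursors. Sox7, Sox17 and Sox18 form the SoxF group, which acts in vessel formation and arterial identity.

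On the mouse build GRCm38.p6 (the mm10 build of the counts), RefSeq places Etv2 (ENSMUSG00000006311) at chr7:30633616-30636509 and Tal1 (ENSMUSG00000028717) at chr4:115056426-115071755. Lmo2 (ENSMUSG00000032698) lies at chr2:103957903-103981878, Gfi1b (ENSMUSG00000026815) at chr2:28609450-28621982 and Sox18 (ENSMUSG00000046470) at chr2:181669837-181671640. Fli1 (ENSMUSG00000016087) lies at chr9:32422204-32543432 and Sox7 (ENSMUSG00000063060) at chr14:63943706-63950732. Runx1 (ENSMUSG00000022952), at chr16:92601466-92826074, and Erg (ENSMUSG00000040732), at chr16:95359169-95586600, share a chromosome. Sox17 (ENSMUSG00000025902) lies at chr1:4490928-4497426. All 10 are annotated as protein coding.

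Promoter sequence, the 250 bases before a transcription start, was held for 5 of the 10 genes. The promoters of Etv2, Tal1 and Gfi1b are shown because Etv2 and Gfi1b were each higher in 1 of the 2 lineages below and Tal1 was high in both. They were read 5′ to 3′ along the gene from the RefSeq table of GRCm38.p6, with capitals for the letters GGAAG of an ETS motif or for GATAA of a GATA-factor motif, which reads TTATC on the other strand.
Etv2, chr7:30635853-30636102, minus strand: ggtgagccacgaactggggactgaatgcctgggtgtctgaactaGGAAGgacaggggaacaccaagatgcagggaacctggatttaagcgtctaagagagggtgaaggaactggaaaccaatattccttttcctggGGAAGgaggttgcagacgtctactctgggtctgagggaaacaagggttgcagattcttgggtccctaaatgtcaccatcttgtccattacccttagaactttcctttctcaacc
Tal1, chr4:115056176-115056425, plus strand: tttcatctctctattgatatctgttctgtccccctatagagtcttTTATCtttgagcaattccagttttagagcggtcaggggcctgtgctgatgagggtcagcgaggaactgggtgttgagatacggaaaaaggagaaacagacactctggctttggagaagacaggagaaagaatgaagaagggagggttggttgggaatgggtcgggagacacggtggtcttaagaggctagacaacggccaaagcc
Gfi1b, chr2:28621983-28622232, minus strand: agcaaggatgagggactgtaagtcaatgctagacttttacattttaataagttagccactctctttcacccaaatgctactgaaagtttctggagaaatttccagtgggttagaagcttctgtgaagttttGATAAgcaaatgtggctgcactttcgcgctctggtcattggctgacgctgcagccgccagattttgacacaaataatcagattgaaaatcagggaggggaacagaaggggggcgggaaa

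The Etv2 window held GGAAG at 206 and at 114 bases before the start, and this start lies inside the annotated span of the gene. The table holds 2 Tal1 promoters. In the first, shown here, a GATA sequence stood 205 bases before the start, and in the Gfi1b promoter 119 bases before it. The second Tal1 promoter, chr4:115057561-115057810, held no GATA match and had GGAAG 30 bases before its start. The letters searched on both strands were GGAAG for ETS factors, GATAA for GATA factors, CAGNTG for E-box binders, ACAAT for SOX factors and TGTGGT for RUNX factors, and matches of different motifs may share end letters. Of 32851 promoters in the table, 64.1% held GGAAG, 22.6% GATAA, 44.8% CAGNTG, 27.7% ACAAT and 14.0% TGTGGT. These matches describe letters in the windows and were not tested as binding sites.

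Cells were counted with the Chromium Single Cell 3' v2 kit, which reads the transcript's 3' end and counts UMIs, the distinct captured molecules. The libraries held 2956 to 8070 cells and 74920880 to 168407965 UMIs. After filters 7117, 2884, 3920 and 7521 cells were retained in stage order, with medians of 21320, 35216, 17251 and 15208 UMIs per cell. Pairs of libraries shared 16 to 88 cell barcodes. Levels are given as CPM (UMIs of a gene per 1000000 UMIs of the cells summed), and shares of cells with a gene were computed after every cell had been thinned at random to 8000 UMIs. Intervals are exact 95% intervals that cover counting error only.

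Clusters were made without the 10 genes and without 16 further factors of the same network, so these genes did not shape the clusters. Leading genes, which entered the naming, were taken over all genes and included Sox17 and Sox18 for the Cldn5-led cluster. The Etv2-led cluster and the Myb-holding sub-cluster described below were picked by such genes. Of 30 clusters, 2 carried an endothelial name and are called by their leading genes. The Cldn5-led cluster held 479, 216, 120 and 195 cells in stage order, and all 12 endothelial markers were at 20 CPM or more at every stage. The Pdlim3-led cluster held 12, 5, 160 and 335 cells, with 11 or 12 of the 12 markers at that level in the 3 libraries with 12 or more of its cells. It also had all 6 endocardial markers (endocardium is the lining of the heart) at 20 CPM or more at those stages. The Cldn5-led cluster had 4, 4, 5 and 3 of these 6 at that level in stage order. Endocardial markers were thus not confined to the Pdlim3-led cluster. Together these endothelial-like cells numbered 491, 221, 280 and 530. Blood-like cells, named from red cell markers, numbered 146, 317, 2 and 1019, and the 2 cells at E9.5 were left out of comparisons. At E8.0 and E8.25 most of them lay in a Cited4-led cluster and at E10.5 in an Hbb-y-led cluster, so the class holds different clusters by stage. The names were rebuilt from markers and need not match those of the study.

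Red cell markers were also present outside the blood-like class. Their summed level in the Cldn5-led cluster was 557, 3432, 66.0 and 5183 CPM in stage order, against 50817 CPM in blood-like cells at E8.0, 117131 CPM at E8.25 and 464127 CPM at E10.5. The blood factor Gfi1b was at 0 to 0.737 CPM in endothelial-like cells. As a background for free RNA, Etv2 was at 1.64 to 10.8 CPM in a Myl2-led cluster of cardiomyocyte-like cells and was found in 1.13% to 12.5% of its cells after thinning. Another cardiomyocyte-like cluster, led by Tdgf1, had more Etv2 in the later libraries, as given below, and was not used as background. The background was thus chosen with Etv2 levels known and holds for the Myl2-led cluster alone.

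**Figure D1:**
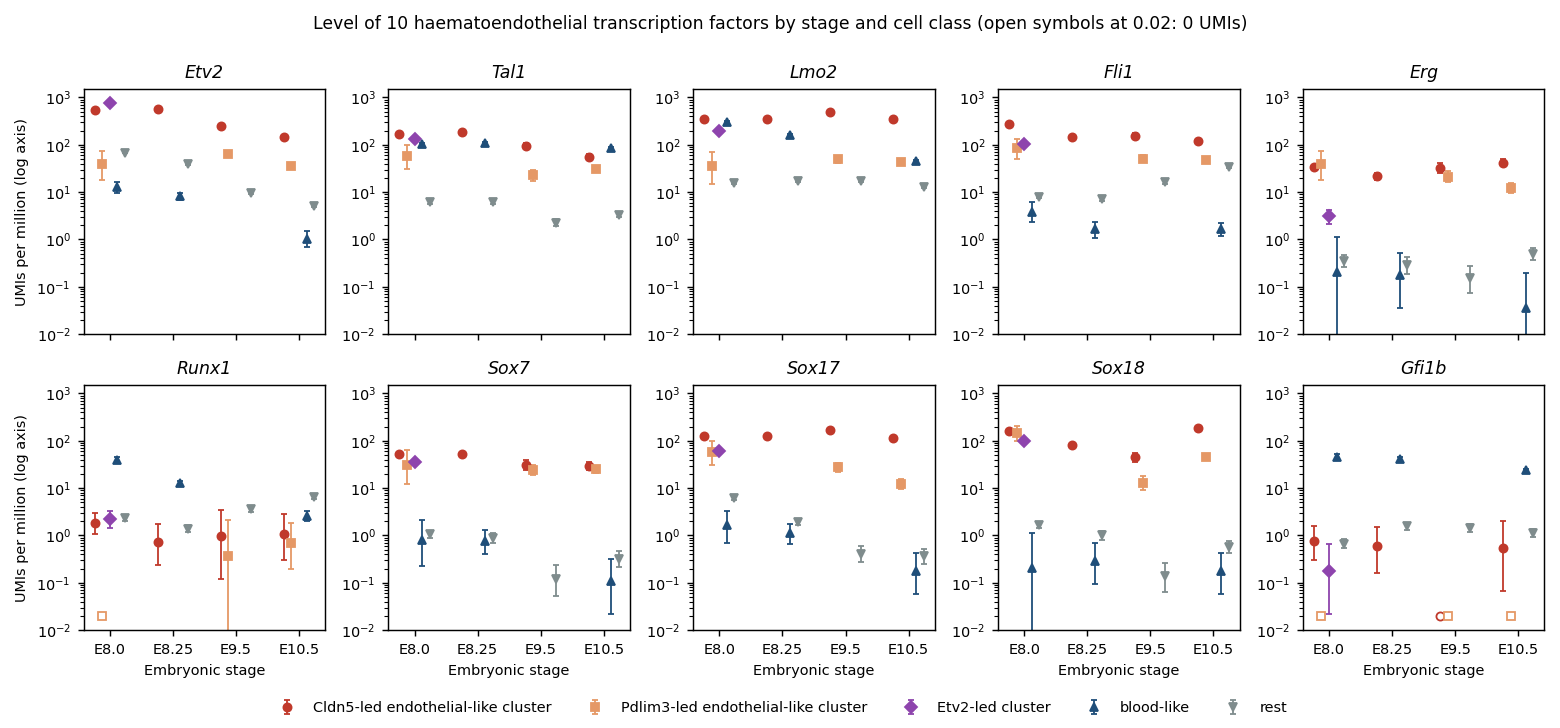
Level of each of the 10 factors in CPM (log axis) by stage in the Cldn5-led and Pdlim3-led endothelial-like clusters, the Etv2-led cluster of E8.0, blood-like cells and the rest, 1 library per stage, with bars for 95% Poisson intervals (open symbols mark 0 UMIs). In the Cldn5-led cluster Etv2 went from 544 at E8.0 to 149 at E10.5, Sox17 from 129 to 115, and Gfi1b was at 24.0 or more in blood-like cells.

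Across stages, Etv2 had the widest range of the 10 in the sum of all retained cells. In stage order it was at 146, 68.7, 18.7 and 9.73 CPM, so that E10.5 stood to E8.0 at a log2 ratio of -3.90. Sox17 was at 17.6, 10.0, 6.26 and 4.14 CPM, Sox7 at 6.89, 4.24, 1.97 and 2.21 CPM, and Sox18 at 18.6, 6.23, 1.94 and 7.82 CPM. These 4 genes were at least 2-fold below their E8.0 level at E10.5, against 9.03% of 17472 genes measured. Gfi1b, at 2.09, 7.96, 1.39 and 6.04 CPM, was the member at least 2-fold higher, against 19.2% of genes. Tal1 was at 28.4, 34.4, 5.77 and 24.1 CPM, and its low value fell on the library with 2 blood-like cells. Lmo2 (58.3, 61.7, 32.4 and 31.1 CPM), Fli1 (30.7, 15.5, 21.5 and 30.1 CPM), Erg (1.65 to 2.68 CPM) and Runx1 (3.16 to 5.25 CPM) were within 2-fold between E8.0 and E10.5. When blood-like cells were left out, E10.5 stood to E8.0 at -1.94 on the log2 scale for Tal1, -0.95 for Sox18, 0.68 for Gfi1b and 1.39 for Runx1, so that Tal1 and Runx1 passed 2-fold and Sox18 and Gfi1b no longer did. In such a sum, fewer cells of a type and less RNA per cell cannot be told apart, and with 1 library per stage no difference between stages could be tested.

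Within endothelial-like cells, 6 of the 9 members with enough UMIs were at least 2-fold below their E8.0 level at E10.5, against 6.84% of 12811 genes, and 0 of 9 were 2-fold higher, against 17.2%. Etv2 was at 532 CPM (517 to 547), 564 (546 to 581), 145 (134 to 156) and 79.8 (74.2 to 85.8) in stage order. The intervals of the first 2 stages overlapped those of neither later stage. Tal1 followed with 166, 181, 53.6 and 40.2 CPM, and Fli1 with 264, 146, 97.1 and 77.2 CPM. Lmo2 was at 336, 338, 242 and 162 CPM, and Sox17 at 127, 126, 87.6 and 52.7 CPM. Runx1 is the sixth of the members counted as lower, but with 17 UMIs at E8.0 and 8 at E10.5 the interval of its log2 ratio, -2.48 to 0.23, spanned no change. Erg stayed between 21.2 and 34.3 CPM. Sox18 was lowest at E9.5, at 161, 81.5, 27.0 and 101 CPM. The class leaves out 563 cells of E8.0, the Etv2-led cluster described below, by a naming condition added after seeing the data. That cluster had less Tal1 (132 CPM), Lmo2 (199 CPM), Fli1 (101 CPM) and Sox17 (60.4 CPM) and more Etv2 (751 CPM). The count of members lower at E10.5 with that cluster in the class was not computed.

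The mix of clusters also differed between stages, since the Pdlim3-led cluster held 12 of 491 endothelial-like cells at E8.0 and 335 of 530 at E10.5, and its part in these differences was not tested. In the Cldn5-led cluster alone, 3 of 9 members were at least 2-fold lower at E10.5, against 8.93% of 11981 genes. Etv2 was at 544, 572, 249 and 149 CPM there, a log2 ratio of -1.87 where the combined class gave -2.74, Tal1 at 169, 183, 93.7 and 55.2 CPM (-1.61, against -2.05), and Fli1 at 269, 148, 157 and 122 CPM (-1.13, against -1.78). Lmo2 held 344, 343, 493 and 346 CPM (0.01), where the combined class gave -1.06. Sox17 held 129, 127, 166 and 115 CPM (-0.16), Erg 34.2, 21.4, 33.0 and 42.1 CPM (0.30) and Sox18 161, 82.4, 45.1 and 189 CPM (0.23). Etv2, Tal1 and Fli1 were thus lower within the Cldn5-led cluster by E10.5, while Lmo2, Erg, Sox17 and Sox18 were within 2-fold of E8.0.

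In the Pdlim3-led cluster the 8 members other than Runx1 and Gfi1b all had lower values than in the Cldn5-led cluster in both later libraries. It had 63.9 and 35.2 CPM of Etv2, 49.4 and 42.2 CPM of Lmo2, and 27.3 and 12.4 CPM of Sox17 at these stages. Sox7, at 24.7 and 24.9 CPM against 31.5 and 30.1 CPM, had overlapping intervals at both stages, and Erg at E9.5.

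The endothelial-like class was then compared with the rest of the cells (5917, 2344, 3637 and 5970 in stage order, without blood-like cells and without an Etv2-led cluster described below), to ask which of the 10 factors mark it. Sums of UMIs per library and class were tested with edgeR's quasi-likelihood test, with the library as a block and Benjamini-Hochberg adjustment over 13866 genes. Of the 10 members 8 were called higher, each in 4 of 4 libraries, against 17.1% of genes, and 0 were called lower, against 19.5%. The libraries are separate stages, so these p-values measure the spread of the difference between stages. E8.0 had 161 CPM of Sox18 in endothelial-like cells and 1.63 in the rest, and E10.5 had 101 and 0.574, a log2 difference of 6.92 ± 0.27 (SE, adjusted p = 0.0001). Erg differed by 6.40 ± 0.30 (adjusted p = 0.000153), Sox7 by 6.23 ± 0.35 (adjusted p = 0.000228) and Sox17 by 6.18 ± 0.62 (adjusted p = 0.00132). These 4 genes were at 0.122 to 6.16 CPM in the rest, with the highest value for Sox17 at E8.0, where 128 of 841 thinned cells of the Phlda2-led cluster, part of the rest, had Sox17. Tal1 (4.52 ± 0.24), Lmo2 (4.09 ± 0.15) and Etv2 (3.71 ± 0.19) were called with adjusted p of 0.0001 to 0.000199.

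Fli1 had the lowest contrast of the 8, 3.37 ± 0.70 on the log2 scale (adjusted p = 0.0143). Its level in the rest was 7.93, 7.19, 16.03 and 33.99 CPM in stage order, while its endothelial-like level went from 264 to 77.2 CPM. Without E8.25 the difference was 2.96 and the adjusted p 0.058. A Col3a1-led cluster, whose other leading genes include Col2a1 and Sostdc1, held 90.6 CPM of Fli1 in 745 cells at E10.5, above the 77.2 CPM of the endothelial-like class. Runx1 (-1.56 ± 0.48, adjusted p = 0.0504) and Gfi1b (-1.43 ± 0.67, adjusted p = 0.144) were not called, with 0.634 to 1.79 CPM of Runx1 in endothelial-like cells. The rest includes the Pf4-led cluster, which carries macrophage and megakaryocyte markers and whose Myb-holding and Apoa1-led sub-clusters held 33 and 25 of the 85 Gfi1b UMIs of the rest at E8.0 and 48 and 56 of its 293 Runx1 UMIs. Without the Pf4-led cluster Gfi1b differed by -0.06 (adjusted p = 0.958) and Runx1 by -0.98 (adjusted p = 0.176), and the same number of members, 8, was called higher.

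Blood-like cells gave another set. Against the rest, in the 3 libraries with enough cells, 4 of 10 members were called higher (19.4% of 14014 genes were) and 2 lower (32.7% were). Gfi1b was at 45.6, 41.9 and 24.0 CPM at E8.0, E8.25 and E10.5 against 0.674 to 1.56 in the rest, a log2 difference of 5.89 ± 0.30 (adjusted p = 6.72e-05). Tal1 was at 101, 110 and 86.2 CPM against 3.35 to 6.07 (5.12 ± 0.38, adjusted p = 0.000139). Lmo2 was at 305, 159 and 45.9 CPM against 13.0 to 17.4 (3.92 ± 0.29, adjusted p = 0.000134). Etv2 was lower (-1.56 ± 0.26, adjusted p = 0.00298), at 12.7, 8.18 and 1.04 CPM, and so was Fli1 (-1.77 ± 0.42, adjusted p = 0.0117), at 3.88, 1.65 and 1.65 CPM.

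Runx1 was called higher by 2.94 ± 0.84 (adjusted p = 0.0247), with levels of 39.4, 12.7 and 2.62 CPM in blood-like cells against 2.32, 1.40 and 6.51 in the rest. It was thus higher at E8.0 and E8.25 and lower at E10.5. Haemoglobin and other red cell markers took 5.08% of blood-like UMIs at E8.0, 11.7% at E8.25 and 46.4% at E10.5, and this share lowers the CPM of every other gene. With those 12 markers left out of the totals, Gfi1b was at 48.0, 47.5 and 44.8 CPM and Tal1 at 107, 125 and 161 CPM. Lmo2 was then at 321, 180 and 85.7 CPM and Runx1 at 41.5, 14.3 and 4.88 CPM, against 6.54 in the rest at E10.5. On that scale Gfi1b varied little, Tal1 had its highest value at E10.5, and Lmo2 and Runx1 still had their lowest.

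The direct comparison of endothelial-like with blood-like cells shares its arms with the 2 above. Of 10 members 6 were higher in endothelial-like cells (28% of 11097 genes were) and 2 lower (21.1% were). Sox18 differed by 7.87 ± 0.30, Erg by 6.88 ± 0.37, Sox17 by 6.28 ± 0.24, Sox7 by 5.79 ± 0.29, Fli1 by 5.21 ± 0.42 and Etv2 by 5.17 ± 0.23 (log2 ± SE, adjusted p of 0.000154 to 0.00049). Gfi1b was lower by -6.90 ± 0.37 (adjusted p = 0.000172) and Runx1 by -4.25 ± 0.41 (adjusted p = 0.000845). Tal1 (-0.60 ± 0.60, adjusted p = 0.439) and Lmo2 (0.24 ± 0.19, adjusted p = 0.346) were not called. Tal1 was higher in endothelial-like cells at E8.0 (166 against 101 CPM) and E8.25 (181 against 110 CPM) and lower at E10.5 (40.2 against 86.2 CPM). With red cell markers left out of the totals, Lmo2 was higher in endothelial-like cells at each of these stages. It was at 337 against 321 CPM at E8.0, 339 against 180 CPM at E8.25 and 162 against 85.7 CPM at E10.5.

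The scaling matters for blood-like cells. TMM, which sets most genes to no change, left the median of all genes at -0.26 (log2) for blood-like cells against the rest, and library totals alone left it at -1.09. The calls split into 2722 higher and 4585 lower with TMM and 435 and 6432 with totals. The 6 members called with TMM kept their direction and were called with totals, and Sox18 was then also lower (adjusted p = 0.0296). For endothelial-like against blood-like cells the calls split into 3111 higher and 2343 lower with TMM and 4300 and 355 with totals. There, totals made Lmo2 higher in endothelial-like cells (1.02, adjusted p = 0.0394) and turned the sign of Tal1, which was not called (0.13, adjusted p = 0.842).

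**Figure D2:**
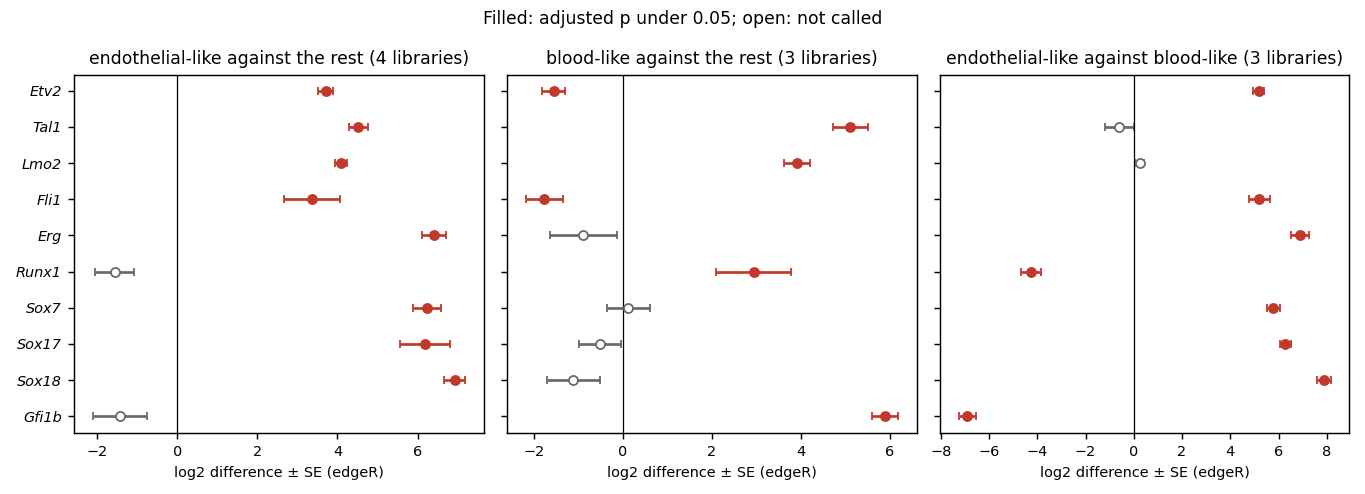
Log2 difference ± SE of each factor between classes from edgeR's quasi-likelihood test on sums per library, filled where the adjusted p was under 0.05. Erg, Etv2, Fli1 and the SoxF genes lie to the right against both other classes. Gfi1b and Runx1 lie to the left of 0 against blood-like cells. Tal1 and Lmo2 lie closest to 0 between the 2 lineages and were not called, and Tal1 differed in sign between stages.

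Other factors of the network, fixed as a list of 16, were read in the same fits. In endothelial-like cells against the rest, 8 of 15 tested were higher (17.1% of all genes were) and 0 lower (19.5% were). Ets2, an ETS factor, was higher by 2.81 ± 0.08 (adjusted p = 6.19e-05), Hhex, a homeobox factor of blood and vessel precursors, by 4.96 ± 0.13 (adjusted p = 5.05e-05), and Gata2, a GATA factor of early blood and endothelium, by 4.03 ± 0.22 (adjusted p = 0.000215). In blood-like cells against the rest, 6 of 15 were higher (19.4% of all genes) and 4 lower (32.7% of all genes). The red cell factors Klf1 (6.92 ± 0.33), Gata1 (6.07 ± 0.26) and Nfe2 (5.89 ± 0.25) and the Tal1 relative Lyl1 (5.33 ± 0.17) were among the higher, with adjusted p of 3.72e-05 to 6.65e-05. Lyl1 was also higher in endothelial-like cells, by 4.29 ± 0.36 (adjusted p = 0.0008). Between the 2 classes, 7 of 14 tested were higher in endothelial-like cells (28% of all genes) and 4 in blood-like cells (21.1% of all genes).

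Etv2-positive cells were not limited to the endothelial-like class. After thinning, 24.0%, 14.3%, 4.55% and 2.96% of cells had at least 1 UMI of Etv2 in stage order (35.4%, 35.0%, 6.99% and 4.57% before thinning). Of the 1591 such cells at E8.0, 380 lay in an Etv2-led cluster, 350 in a Phlda2-led cluster, 332 in the Cldn5-led cluster and the largest number, 510, in other clusters. At E8.25, 254 of 410 lay in other clusters and 133 in the Cldn5-led cluster, and at E9.5, 81 of 167 lay in other clusters. At E10.5, 62 of 199 lay in the Pdlim3-led cluster, 42 in the Cldn5-led cluster, 7 in blood-like cells and 88 in other clusters. In the rest as a whole 15.6%, 10.9%, 2.37% and 1.67% of thinned cells had Etv2, against 5.08%, 12.5%, 1.13% and 1.57% of the Myl2-led cardiomyocyte-like cells. Only at E8.0 did the intervals of the rest and of this background not overlap, and the Myl2-led cells of E8.25 numbered 16. The rest includes the Phlda2-led cluster, where 350 of 841 thinned cells had Etv2 at E8.0, and the Myl2-led cells themselves. The share of the rest without them was not computed, so the difference need not hold across its other clusters. By UMIs, the Etv2-led cluster held 37.9% of all Etv2 UMIs of E8.0, endothelial-like cells 22.9% and the Phlda2-led cluster 22.8%, and at E10.5 endothelial-like cells held 59.8%.

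**Figure D3:**
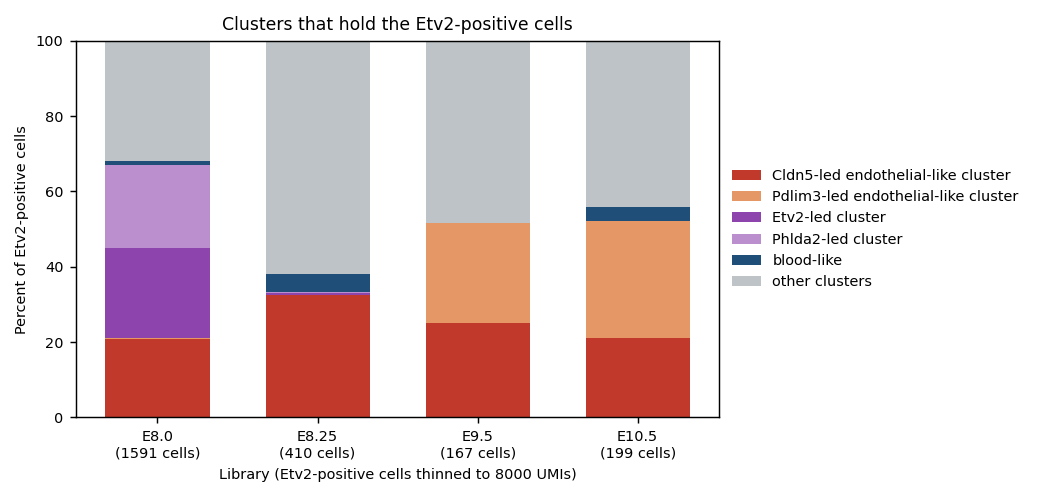
Percent of Etv2-positive cells (at least 1 UMI after thinning to 8000) that lay in each cluster or class, 1 bar per library with the number of such cells under it. The Etv2-led and Phlda2-led clusters hold 23.9% and 22.0% of the bar at E8.0 and almost none of the later ones.

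The Etv2-led cluster, chosen because its Etv2 level was the highest of the clusters, was almost confined to E8.0, with 563 cells there and 2, 1 and 2 at the later stages. Its other leading genes included Hhex and Kdr, but 6 of its 10 leading genes also led the Phlda2-led cluster. It was therefore given no cell type name, by a condition added after seeing the data. Without that condition it met the rule for an endothelial name. Of the 12 endothelial markers 7 were at 20 CPM or more. Kdr stood at 283 CPM, near the 323 CPM of the Cldn5-led cluster, while the junction gene Cdh5 was at 13.0 CPM against 74.8. Its members with high levels were Etv2 (751 CPM, 735 to 768), Lmo2 (199 CPM), Tal1 (132 CPM), Fli1 (101 CPM), Sox18 (97.8 CPM), Sox17 (60.4 CPM) and Sox7 (36.4 CPM). Erg was at 3.06 CPM (2.12 to 4.27) against 34.2 in the Cldn5-led cluster, and Gfi1b (0.180 CPM) and Runx1 (2.25 CPM) were at the low level of the rest.

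Inside that cluster 5 members were found in a larger share of Etv2-positive than of Etv2-negative cells, with intervals that did not overlap. Of 380 Etv2-positive cells, 58.7% had Tal1 (53.6% to 63.7%), against 2.99% of 134 Etv2-negative cells. Lmo2 was found in 66.3% against 8.21%, Sox18 in 171 of 380 against 5.97%, Sox7 in 27.9% against 3.73% and Fli1 in 48.7% against 18.7%. Seen from the other side, 98.2% of Tal1-positive and 95.5% of Sox7-positive and of Sox18-positive cells of the cluster had Etv2. The intervals overlapped for Sox17 (31.8% against 20.1%), and also for Erg and Runx1, each at 1.58% against 1.49%. No cell of the cluster had Gfi1b after thinning. These shares come from 1 library and from a cluster chosen on Etv2, and were not tested. The share of all genes that differed in this way was not computed, so the 5 members cannot be set against it. In the Phlda2-led cluster (851 cells, Etv2 at 223 CPM), where Lmo2 (11.0 CPM), Fli1 (13.3 CPM) and Tal1 (13.6 CPM) were low, Tal1 was found in 13.7% of Etv2-positive and 2.04% of Etv2-negative cells.

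Whether Etv2 went with the other members inside the endothelial-like class was asked by splitting each library's cells at 1 UMI of Etv2. The positive arms held 413, 171, 126 and 161 cells in stage order and the negative arms 78, 50, 154 and 369. Of 7 members tested, 2 were higher in the positive arm, against 1.35% of 9688 genes called higher, and 0 lower, against 2.19%. Tal1 was at 179, 207, 82.6 and 65.4 CPM in positive and 80.1, 48.7, 24.0 and 27.8 CPM in negative cells. Every library showed the difference, whose log2 size was 1.53 ± 0.15 (adjusted p = 0.002, edgeR). Lmo2 was at 357, 388, 375 and 266 CPM in positive and 190, 84.1, 106 and 110 CPM in negative cells, with all 4 positive arms above all 4 negative arms (1.52 ± 0.17, adjusted p = 0.00287).

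The other 5 were not called. Sox17 was higher in 4 of 4 libraries, by 0.31 ± 0.10 (adjusted p = 0.129), and Sox7 in 3 of 4, by 0.35 ± 0.18 (adjusted p = 0.335). Fli1 (0.23 ± 0.13, adjusted p = 0.371) and Sox18 (-0.15 ± 0.18, adjusted p = 0.714) differed in sign between libraries. Erg was lower in 4 of 4, by -0.25 ± 0.14 (adjusted p = 0.35). The split also shifts the mix of the 2 endothelial-like clusters. In the Cldn5-led cluster alone, Tal1 differed by 1.88 ± 0.16 and Lmo2 by 1.504 ± 0.14, both called. Without the library block neither was called (adjusted p of 0.518 and 0.158).

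**Figure D4:**
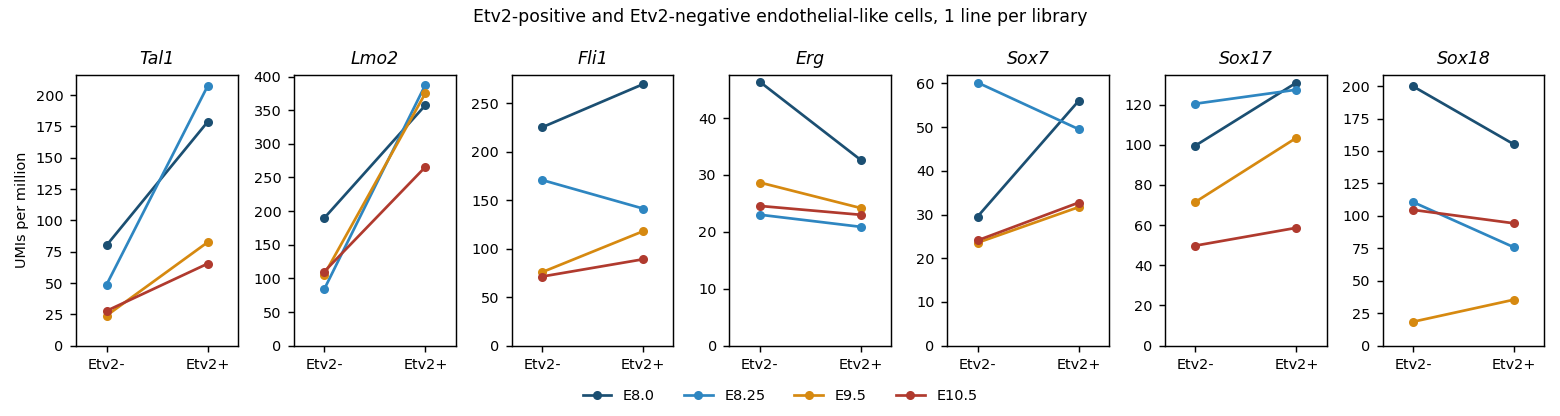
CPM of 7 factors in Etv2-negative and Etv2-positive endothelial-like cells, 1 line per library. The 4 Tal1 lines and the 4 Lmo2 lines go up from negative to positive cells, and the 4 Erg lines go down, although Erg was not called.

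Among listed genes in the same split, Hhex was higher by 1.07 ± 0.09 (adjusted p = 0.000964) and Gata2 by 0.60 ± 0.13 (adjusted p = 0.0422), while Mecom, a zinc-finger factor of blood stem cells and arterial endothelium, was lower by -1.25 ± 0.24 (adjusted p = 0.0286). These were 2 higher and 1 lower of 10 network factors tested. Of 11 arterial genes, 1 was lower and 0 higher. This was Gja5, a connexin of arterial endothelium, at 2.77, 1.90, 2.08 and 0.324 CPM in positive and 21.1, 27.4, 44.1 and 27.9 CPM in negative cells (-3.87 ± 0.33, adjusted p = 0.000964). Of 4 venous genes, Nrp2, a co-receptor of venous and lymphatic endothelium, was higher by 0.86 ± 0.13 (adjusted p = 0.00966). Of 3 blood-forming endothelium genes tested, Mecom, which is on that list too, was the 1 called.

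Per cell, the same pattern held for Tal1. Among thinned endothelial-like cells, Tal1 was found in 69.3% (232 of 335), 76.7% (102 of 133), 40.7% (35 of 86) and 46.2% (48 of 104) of Etv2-positive cells in stage order. In Etv2-negative cells the shares were 41.1%, 36.0%, 17.1% and 21.5%, with no overlap of the 2 intervals at any stage. In Myl2-led cardiomyocyte-like cells the share with Tal1 was 0% to 1.69% after thinning. Lmo2 was found in 88.4%, 88.0%, 54.7% and 52.9% of positive against 72.3%, 53.5%, 43.5% and 37.5% of negative cells. The Lmo2 intervals overlapped at E9.5 (43.5% to 65.4% against 36.0% to 51.3%). At E10.5 they were barely apart, with a lower end of 42.85% against an upper end of 42.67%. The difference over libraries averaged 29.3 percentage points for Tal1 and 19.3 for Lmo2. In the Cldn5-led cluster alone, Tal1 was found in 69.9%, 76.7%, 59.5% and 76.2% of positive and 39.8%, 35.8%, 14.9% and 18.9% of negative cells. There, Erg was found in fewer positive than negative cells in all 4 libraries, at 16.7% against 33.1% at E10.5.

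**Figure D5:**
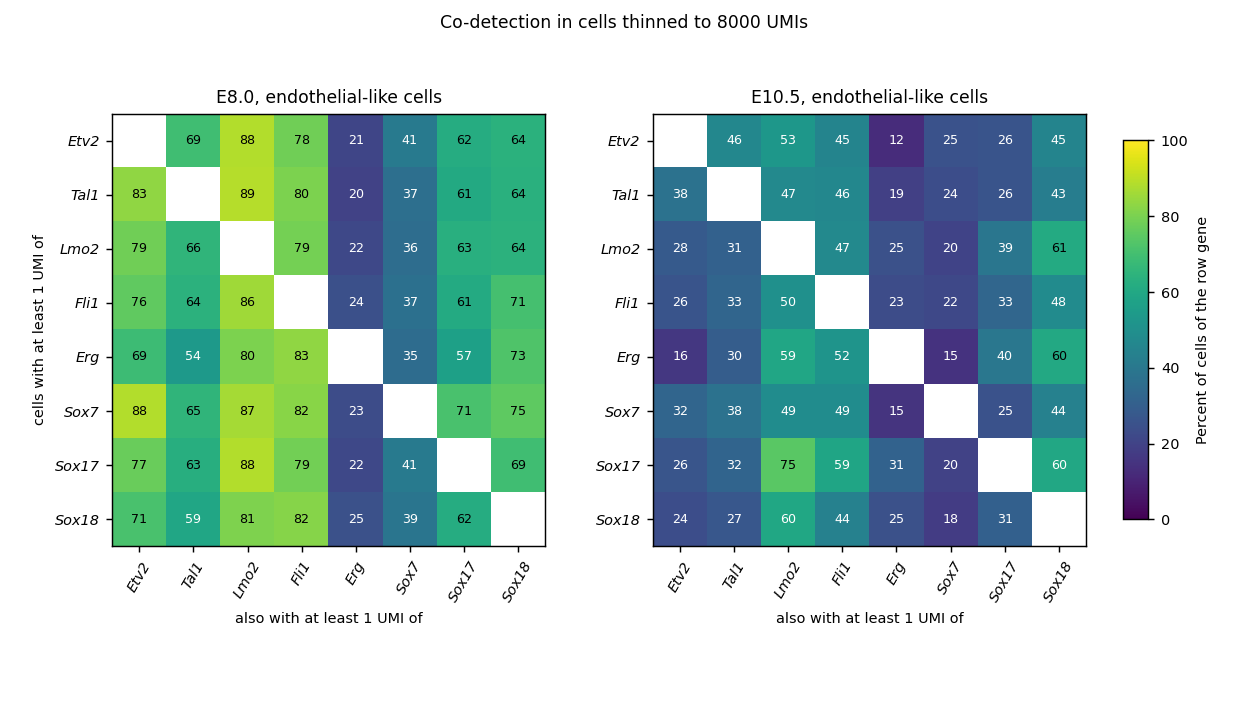
Percent of endothelial-like cells with at least 1 UMI of the row gene that also had at least 1 UMI of the column gene, after thinning to 8000 UMIs, at E8.0 and E10.5. At E8.0 88.4% of Etv2-positive cells had Lmo2 and 20.9% had Erg, and at E10.5 52.9% and 12.5%.

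Cells held several of the 10 genes at once. After thinning, endothelial-like cells had medians of 5, 4, 2 and 2 members in stage order, and the share with 3 or more was 93.5%, 82.2%, 43.4% and 43.2%. In the Cldn5-led cluster the share was 94.7%, 83.6%, 72.5% and 74.6%, and in the Pdlim3-led cluster 21.8% and then 25.7% in the later 2 libraries. The Etv2-led cluster had a median of 3, with 57.6% of cells at 3 or more. Blood-like cells reached 3 members in 36.8% at E8.0, 19.9% at E8.25 and 4.19% at E10.5, and the rest in 0.759% to 1.76%.

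In blood-like cells of E8.0, 83.7% of Tal1-positive and 93.1% of Tal1-negative cells had Lmo2. At that stage 96.2% of Gfi1b-positive cells had Lmo2, and 86.1% of Runx1-positive cells did, where 87.5% of all blood-like cells had Lmo2. Tal1 was found in 26 of 52 Gfi1b-positive cells at E8.0, in 63.7% at E8.25 and in 48.5% at E10.5, near its share in the class of 59.7%, 60.1% and 49.2%. Runx1-positive endothelial-like cells were few, 16, 5, 3 and 7 before thinning, so that a split on Runx1 could not be tested. Etv2 was found in 8 of 8 thinned Runx1-positive endothelial-like cells of E8.0, in 3 of 3 of E8.25, in 0 of 1 of E9.5 and in 1 of 4 of E10.5, where the class shares in the first 2 libraries were 74.9% and 60.7%.

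The split on Sox17 asked whether a SoxF factor goes with the rest. Of 7 members tested, Lmo2 was higher in Sox17-positive endothelial-like cells by 1.13 ± 0.21 (adjusted p = 0.0391) and Fli1 by 0.59 ± 0.11 (adjusted p = 0.0433), against 0.471% of 9765 genes called higher and 0.614% lower, and 0 members were lower. Sox18 (0.83 ± 0.19, adjusted p = 0.073), Erg, Sox7, Etv2 and Tal1 were not called, all with values above 0. Of 11 arterial genes, Dll4, a Notch ligand of arteries, was higher by 1.01 ± 0.20 (adjusted p = 0.0469). Without E9.5, and likewise without E10.5, 0 members were called, and without E8.0 there were 4. The shares of all genes called with a library left out were not computed. In the Cldn5-led cluster alone 0 were called, with Lmo2 at 0.30 ± 0.07 (adjusted p = 0.0552) and Fli1 at 0.12 ± 0.08 (adjusted p = 0.794).

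A split on Nfatc1, the endocardial factor, called 0 of 8 members with edgeR and 0 with DESeq2, against 0.149% of 10099 genes higher and 0.0396% lower. At an unadjusted edgeR p under 0.05 there were 3. They were Lmo2 at -0.44 ± 0.17, Fli1 at -0.34 ± 0.13 and Sox7 at 0.22 ± 0.10 (adjusted p of 0.536, 0.514 and 0.627). The share of all genes under that unadjusted threshold was not computed, so these 3 are not read as a difference. The 2 endothelial-like clusters themselves, compared after the data had been seen, differed more. In the Pdlim3-led against the Cldn5-led cluster 6 of 8 members were lower, against 3.76% of 9990 genes, and 0 higher, against 3.67%. E8.25, with 5 Pdlim3-led cells, did not enter this fit. Among the lower were Lmo2 (-3.22 ± 0.13) and Sox17 (-2.67 ± 0.30, adjusted p = 0.00213). Etv2 (-2.34), Fli1 (-1.56), Sox18 (-1.54, adjusted p = 0.0277) and Tal1 (-1.47) were lower too, while Erg (-1.08, adjusted p = 0.0916) and Sox7 (-0.42, adjusted p = 0.224) were not called.

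Some members were also detected in other classes. Lmo2 was at 139 and 138 CPM in the 2 later libraries in a Tdgf1-led cluster of cardiomyocyte-like cells, in 50.8% and 40.7% of thinned cells, against 13.2 and 8.19 CPM in the Myl2-led cluster of the same libraries. Etv2 was at 31.8 and 52.0 CPM there and Kdr at 43.0 and 98.3 CPM, while Cdh5 was at 0 and 0.41 CPM and Sox17 at 2.80 and 0 CPM. Runx1 was at 26.2 CPM at E10.5 in an Lhx2-led cluster of 646 cells, where the same cluster had 4.03 CPM in 619 cells at E9.5.

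Sub-clusters of the Pf4-led cluster carried a wider set. Megakaryocyte-like cells (18 and 23 in the 2 later libraries) had Runx1 at 171 and 73.8 CPM, Gfi1b at 190 and 87.8 CPM, Fli1 at 322 and 243 CPM, Tal1 at 92.8 and 140 CPM and Lmo2 at 256 and 269 CPM. Erg, Sox7, Sox17 and Sox18 were at 0 UMIs in them, which allows up to 9.01 and 7.36 CPM. A sub-cluster of 20 cells at E8.0 that held Myb, a factor of blood progenitors, and counted Lmo2 and Runx1 among its leading genes had Runx1 at 95.9 CPM (70.7 to 127), Gfi1b at 65.9 CPM, Lmo2 at 555 CPM, Tal1 at 144 CPM and Etv2 at 73.9 CPM. Macrophage-like cells (55 at E10.5) had Fli1 at 79.97 CPM, Runx1 at 42.0 CPM and Lmo2 at 94.2 CPM, with Gfi1b at 0.678 CPM. These groups were sub-clusters of few cells and were not tested.

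The genes whose levels ran most like each member were found over 71 sums of clusters and libraries of at least 50 cells, by Pearson's r of log2 levels over 9304 genes. The sums share libraries, so r is a description. Etv2 ran with Kdr (r = 0.88), Hhex (0.81) and Sox17 (0.80). Tal1 and Lmo2 were each other's closest (0.85), and Gfi1b ran with Gata1 (0.94), Ncf4 (0.91) and Gpx1 (0.90). Erg ran with Rasip1 (0.91), Cdh5 (0.90) and Esam (0.87), and Fli1 with Elk3 (0.89), Rhoj (0.82) and Fmnl3 (0.79). Sox7 (0.94), Sox17 (0.89) and Sox18 (0.93) all ran with Arhgef15, and Sox7 with Sox18 at 0.93. Runx1 had weaker neighbours, among them Tuba4a (0.67) and Ncf4 (0.64).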

How the data were processed

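Single-cell RNA-seq counts of 4 libraries, 1 per stage, were analysed. The deposited values are raw UMI counts per gene and cell, which the authors made with Cell Ranger 3.1.0 on mm10 and filtered to cell barcodes. Cells with at least 1000 genes and at most 10% mitochondrial UMIs were kept, and the highest Scrublet scores were removed at 0.8% per 1000 cells. Cells were log-normalised to 10000 and 2000 variable genes were taken without the 10 members and 16 network factors. Libraries were joined over 50 principal components by mutual nearest neighbours (20) and clustered by Leiden at a resolution of 1.5 (Python 3.11.15, scanpy 1.11.5, igraph 0.11.9). A cluster was named from at least 3 raised markers, and left unnamed where more of its 10 leading genes led another cluster than were its own markers, a condition added after seeing the data. UMIs were summed per library and class with at least 10 cells and tested with edgeR 4.0.16 (quasi-likelihood, TMM, library as block, Benjamini-Hochberg over all genes, threshold 0.05; R 4.3.3). Libraries share no replicate numbers beyond their stage, so the block pairs the classes of 1 library. Each SE given with an edgeR difference is the absolute log2 difference divided by the square root of the test's F statistic. DESeq2 1.42.0 and other settings were alternatives. On simulated counts, 100% of genes changed by 2 on the log2 scale were recovered in each of the 6 tested comparisons, and 52% to 83% of those changed by 1. The changed genes had at least 20 expected UMIs in the smallest sum, a dispersion of 0.05 and the same change in every library. Genes with fewer UMIs, and changes that differ between stages, were not covered. Named genes were the 10 members, the fixed network, arterial, venous and blood-forming endothelium lists, and the 3 genes most like each member, of which 1 is not reported here. Members and lists were chosen with earlier results of these data known. Precision is limited by UMIs per class, and depth is given with the results.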

Additional observations from a re-analysis of the deposited data

Results flagged for a closer look

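In 8 results the libraries differed in direction between stages, with 1 library per stage, and none of these differences was tested. Runx1 in blood-like cells against the rest had log2 ratios of 4.08 at E8.0, 3.17 at E8.25 and -1.31 at E10.5. Red cell markers took 46.4% of blood-like UMIs at E10.5, and without them Runx1 was at 4.88 CPM against 6.54 in the rest. Tal1 in endothelial-like against blood-like cells was at 0.72 at both E8.0 and E8.25 and at -1.10 at E10.5.

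In Etv2-positive against Etv2-negative endothelial-like cells, Fli1 ranged from -0.27 at E8.25 to 0.64 at E9.5. Sox18 ranged from -0.55 at E8.25 to 0.95 at E9.5 in the same split.

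The other 4 came from the split on Nfatc1, a gene of the endocardium. Etv2 was at 0.47 at E8.25 and -1.08 at E10.5, and Tal1 at 0.33 at E8.25 and -0.86 at E9.5. Lmo2 was at 0.27 at E8.25 and -1.25 at E9.5, and Fli1 at 0.13 at E8.0 and -1.12 at E9.5. The Pdlim3-led cluster held 12 and 5 endothelial-like cells at E8.0 and E8.25 and 160 and 335 at E9.5 and E10.5. Its part in these values was not tested.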

How the results depend on the processing

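Of the alternatives for counts and shares, 201 stayed within the limits set for no change and 23 did not. Of those for single members 849 stayed within them, 30 moved, 33 became significant, 20 lost significance and 1 reversed. Reversed means a change of sign where the member was called, or past 2-fold between stages, in either setting. Other changes of sign could count as unchanged, as for Tal1 between endothelial-like and blood-like cells with library totals. In endothelial-like cells against the rest, 1 member (Runx1) was called lower, where 0 were, with library totals without TMM, with DESeq2, without the filter on low counts and without E8.0 (0 to 1 over the left-out libraries). For blood-like cells against the rest, 0 members were called lower without the replicate block and 1 without correction between libraries, where 2 were. Without the block Etv2 was at -1.87 (adjusted p = 0.163) and Fli1 had an adjusted p of 0.0538. The Etv2 split called 0 members higher without the replicate block, where 2 were. The Nfatc1 split called 4 lower without the filter on low counts, 1 in cells thinned to 8000 UMIs, 0 to 1 with a library left out and 6 between the 2 endothelial-like clusters, where 0 were. The Sox17 split called 2 higher. It called 7 without the filter on low counts, 4 at a Leiden resolution of 2.0, 1 without correction between libraries, 1 in thinned cells, and 0 without the replicate block, at 2 UMIs and in the Cldn5-led cluster alone, with 0 to 4 over left-out libraries. The Cldn5-led cluster alone had 3 members 2-fold lower at E10.5, where 6 were, and Lmo2 went from -1.06 to 0.0099. For the sum of all retained cells, 17 single-member values moved beyond counting error and 23 did not. They moved mainly with blood-like cells left out (Tal1 from -0.24 to -1.94, Runx1 from 0.59 to 1.39) and with totals without haemoglobin, mitochondrial and ribosomal protein genes (Tal1 at -0.06). At 2 UMIs of Etv2 the Tal1 difference was 37.3 percentage points against 29.3. The causes were not tested. For most of the alternatives above the share of all genes called was not computed, so their counts of members cannot be set against it. Library totals and the Cldn5-led cluster alone were chosen after seeing the data. The split on Runx1 was not run, with 3 to 16 positive cells per library.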

Other observations

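2 further sub-clusters of the Pf4-led cluster carried other sets of the 10 factors. An Apoa1-led sub-cluster of 21 cells at E8.0, which was given no name and whose leading genes include Ttr and Rbp4 besides Klf1 and Gata1, had Runx1 at 80.2 CPM, Lmo2 at 523 CPM, Tal1 at 123 CPM and Gfi1b at 35.8 CPM, with Etv2 at 14.3 CPM. An Mpo-led sub-cluster of 25 cells at E10.5, led by genes of granule-forming myeloid cells, had Lmo2 at 112 CPM, Fli1 at 63.7 CPM and Runx1 at 57.7 CPM, with Gfi1b at 1.20 CPM. Fli1 was at 80.9 CPM in 99 cells of the Col3a1-led cluster at E9.5, where Runx1 was at 1.31 CPM.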
